A study of Mus musculus with 4 samples.

Results

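The genes described here are 37 cell cycle genes, picked by symbol from the 31053 genes of the count tables, and all 37 were found there. By role, 10 serve DNA replication (Mcm2 to Mcm7, Pcna, Tyms, Rrm1, Rrm2), 5 are other S-phase genes (Tk1, Dut, Hells, Uhrf1, Pclaf), and 19 act in G2 and mitosis (Mki67, Top2a, Birc5, Ube2c, Cdk1, Ccnb1, Ccnb2, Ccna2, Cenpa, Cenpe, Cenpf, Nusap1, Tpx2, Cdca3, Cdca8, Aurkb, Kif11, Spc25, Bub1). The remaining 3 (Stmn1, Hmgb2, Smc2) serve several phases or are also used by resting cells. Their transcripts were counted in CD4 T cells of tumor-bearing and normal mouse lung.

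A cell that prepares to divide first copies its DNA in S phase and then separates the copies in mitosis. The Mcm proteins form the helicase that opens DNA at replication origins, Pcna is the clamp that holds the polymerases, and Tyms and the Rrm subunits supply nucleotides. Cyclins B and A with the kinase Cdk1 drive entry into mitosis, and the chromosomal passenger and kinetochore proteins attach chromosomes to the spindle. Most resting lymphocytes hold few transcripts of most mitotic genes.

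The tumor group was lung of C57BL/6 mice taken 3 weeks after TC1 cells, a transformed mouse lung epithelial line, were given into the tail vein, and the normal group was lung of age-matched mice without tumor. Lungs were perfused and digested with collagenase and DNase, lymphocytes were taken from a Percoll gradient, and CD4 T cells were enriched magnetically and sorted live. Each suspension gave 1 droplet-based 5′ expression library and 1 T cell receptor library. How many mice entered a suspension, their sex, and whether normal mice received any injection are not given in the sources used here.

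With 1 library per tissue there was no test and no p-value, and batch and tissue cannot be told apart. The tumor library kept 7135 cells with 31921001 UMIs (unique molecule counts) and a median of 4173 per cell, and the normal library kept 7082 cells with 28084248 UMIs and a median of 3906. The libraries shared 86 barcode sequences among those deposited. Genes defining CD4 T cells (Cd3e, Cd3d, Cd3g, Trac, Cd4) summed to 3124 CPM in the tumor library and 3209.5 CPM in the normal library, where CPM is the UMIs of a gene scaled to a common total of UMIs for the cells counted. Of the CD8 genes, Cd8a had 4 UMIs in the tumor library and 2 UMIs in the normal library while Cd8b1 had 498 and 456, and the red cell genes Hbb-bs and Hba-a1 had 0. B cell genes summed to 184 UMIs in the tumor library and 45 UMIs in the normal library, and epithelial genes to 415 UMIs, of which 352 were Epcam, against 140 UMIs. Mcm7, Pclaf, Tk1, Smc2, Top2a, Ccna2, Kif11, Nusap1 and Tpx2 overlap another annotated gene, and since the strand used in counting is not given in the sources used here, their values are less certain.

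Cells were split by whether they held at least 1 UMI of Foxp3, the transcription factor of regulatory T cells, and at least 1 UMI of Ccr7, the lymph node homing receptor of naive and resting cells. Foxp3+ cells numbered 1147 in tumor lung, a share of 16.1% (95% interval 15.2 to 16.9), and 206 in normal lung, a share of 2.91% (2.53 to 3.33). Of the Foxp3+ cells, 746 tumor and 31 normal cells were Ccr7-, and 401 tumor and 175 normal cells were Ccr7+. Of the Foxp3- cells, 1139 tumor and 682 normal cells were Ccr7-, and 4849 tumor and 6194 normal cells were Ccr7+. Median depth was 4566 and 3910.0 UMIs in tumor and normal Foxp3+ Ccr7- cells, 5223 and 4003 in Foxp3+ Ccr7+ cells, 3777 and 3528 in Foxp3- Ccr7- cells, and 4176 and 3939 in Foxp3- Ccr7+ cells. A UMI of either gene is more easily caught in a deep cell, and the part of depth in the comparisons between classes was not tested beyond the thinned values given. Thinned means that each cell was reduced at random to 2417 UMIs and shallower cells were left out. Thinned shares keep the classes read at full depth, unless thinning before the classes were read is stated.

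Promoters of the 2 main roles differed in some of the short motifs searched and were alike in CCAAT. Of 37 genes, 32 had a promoter in the RefSeq table (GRCm38.p6), each a window of 300 bases, from 250 before to 50 after a transcription start. The E2F-like motif searched on either strand was the word TTCCCGC, or with other middle letters the word TTGGCGC, the word TTCGCGC or the word TTGCCGC, and these can overlap each other. It was found for 6 of 9 replication genes, 3 of 16 mitotic genes and 10.9% of 27025 genes. The replication genes without it were Mcm2, Pcna and Tyms. E2F factors are known for switching on S-phase genes. The cell cycle homology region (CHR, TTTGAA on either strand), known from promoters of mitotic genes, was found for 1 of 9 replication genes, 11 of 16 mitotic genes and 20.2% of all genes. CCAAT on either strand was found for 8 of 9 replication and 14 of 16 mitotic genes, against 41.1% of all genes. Other S-phase genes had the E2F-like motif in 3 of 5 and the CHR in 0 of 5. These matches are letters in a window, not measured binding sites. The 2 replication genes and 2 mitotic genes with the most UMIs among those holding the motif of their role are shown, 5′ to 3′ on the strand of the gene, with the motif in capitals. In Mcm6 the capitals hold a pair of overlapping E2F-like motifs on opposite strands, and in Cenpa the CHR begins 16 bases past the start.
Mcm6, minus strand of chr1:128359706-128359788: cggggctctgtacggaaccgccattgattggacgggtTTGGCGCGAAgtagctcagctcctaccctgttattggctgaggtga
Mcm7, minus strand of chr5:138172002-138172088: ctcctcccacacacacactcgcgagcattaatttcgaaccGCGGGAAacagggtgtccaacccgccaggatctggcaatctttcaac
Cenpa, plus strand of chr5:30666862-30666907: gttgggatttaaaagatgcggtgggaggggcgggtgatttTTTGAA
Top2a, minus strand of chr11:99024190-99024252: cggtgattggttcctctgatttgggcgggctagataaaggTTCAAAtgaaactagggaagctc

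The 10 replication genes together were close to level across tissues and classes, while the 19 mitotic genes were highest in Foxp3+ cells of the tumor library. Summed replication transcripts stood at 334 CPM (320.0 to 349) in tumor and 301 CPM (266 to 339) in normal Foxp3+ cells, and at 345 CPM (338 to 352) in tumor and 337 CPM (331 to 344) in normal Foxp3- cells. Over the 8 combinations of class and library the replication sum ran from 295 to 364 CPM. Pcna and Mcm4 weighed most in it, with 2739 and 1941 of 8893 UMIs in tumor Foxp3- cells. In tumor Foxp3+ cells they had 397 and 307 of 2059 UMIs. A level sum does not mean level genes, since single replication genes went in opposite directions, as given below. Summed mitotic transcripts were 298 CPM (284 to 312) in tumor and 177 CPM (150.3 to 206) in normal Foxp3+ cells, and 144 CPM (139 to 149) in tumor and 133 CPM (129 to 138) in normal Foxp3- cells. Intervals here and below cover counting error only and treat UMIs of a cell as independent.

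Cenpa, the histone H3 variant that marks centromeres, did not follow the other mitotic genes. It stood at 138 and 162 CPM in tumor and normal Foxp3+ Ccr7- cells, 127 and 124 CPM in Foxp3+ Ccr7+ cells, 113 and 105 CPM in Foxp3- Ccr7- cells, and 106 and 105 CPM in Foxp3- Ccr7+ cells. So it was present at a similar level in every class, and a Cenpa UMI was found in 33% of tumor and 31.1% of normal Foxp3- Ccr7+ cells. It made up 44.9% of mitotic UMIs in tumor Foxp3+ cells and 73% in normal Foxp3+ cells, and 74.6% and 79% in tumor and normal Foxp3- cells.

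Without Cenpa, a choice made after its share was seen, the 18 other mitotic genes summed to 164 CPM (154 to 175) in tumor and 47.8 CPM (34.6 to 64.4) in normal Foxp3+ cells. In Foxp3- cells they summed to 36.5 CPM (34.2 to 38.9) in the tumor library and 28 CPM (26 to 30.1) in the normal library. Split by Ccr7, the sum was 141 and 64.6 CPM in tumor and normal Foxp3+ Ccr7- cells, 198 and 45.1 CPM in Foxp3+ Ccr7+ cells, 72.6 and 78 CPM in Foxp3- Ccr7- cells, and 28.9 and 23 CPM in Foxp3- Ccr7+ cells. The normal Foxp3+ Ccr7- value rests on 8 UMIs from 31 cells.

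**Figure D1:**
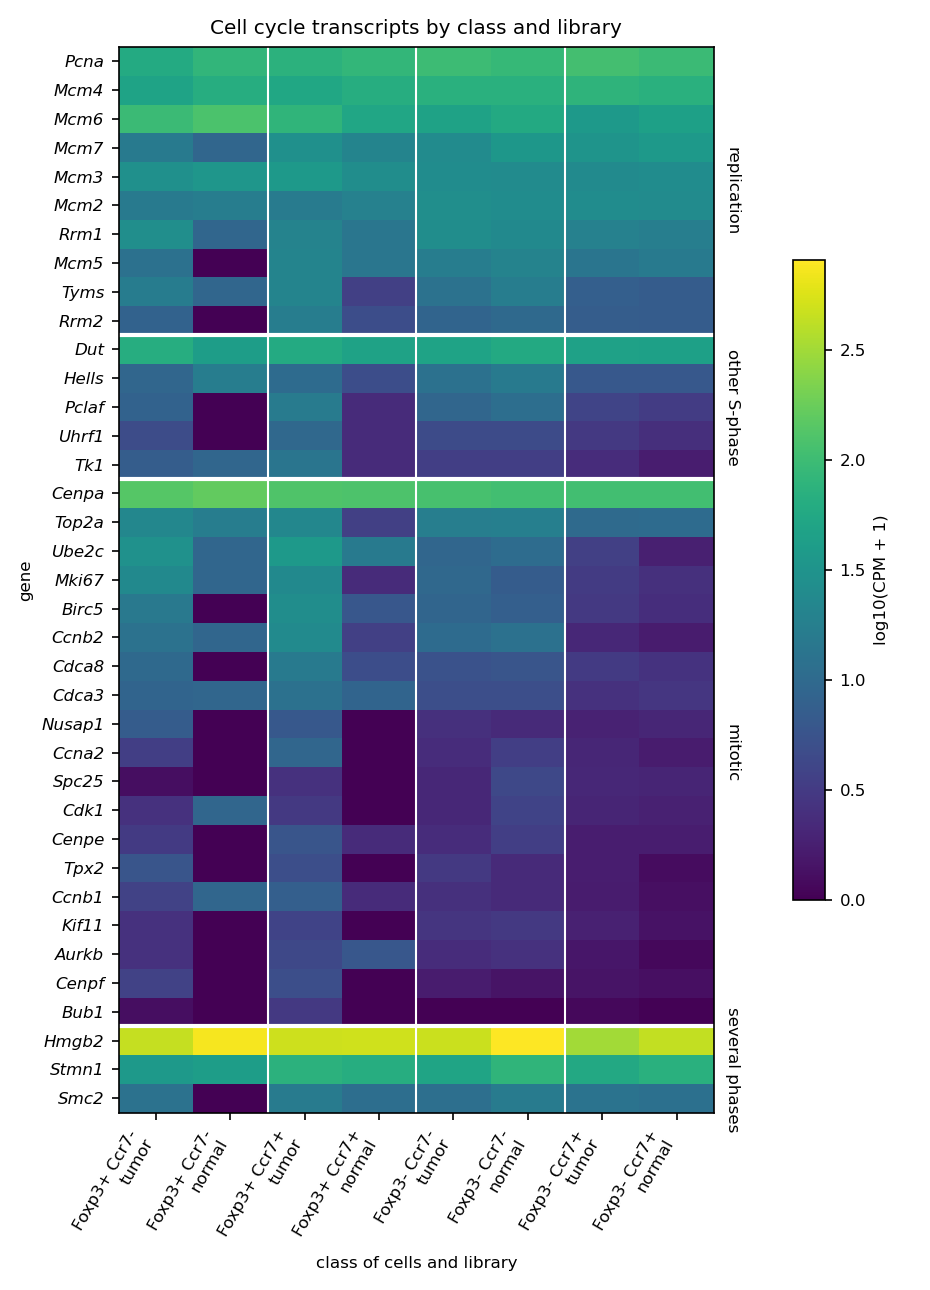
Heat map of the 37 genes (rows, grouped by role) in the 4 classes of cells, each with the tumor library left of the normal library. Color gives log10 of CPM plus 1. Cenpa is bright in every column, with 105 to 162 CPM, while most other mitotic genes are brightest in the tumor columns of Foxp3+ cells.

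In tumor-lung Foxp3+ cells set against Foxp3- cells of the same library, most mitotic genes were several-fold higher, and replication genes went both ways. Of the 36 genes with at least 30 UMIs summed over both groups, 22 were at least 1.5-fold higher in Foxp3+ cells and 3 were at least 1.5-fold lower. Over all 10768 genes with that many UMIs, 28.8% were that much higher and 12.1% that much lower. The median log2 ratio was 2.13 for the 18 mitotic genes that passed this minimum and 0.22 for the 10 replication genes, beside 0.22 over all genes. Bub1, a spindle checkpoint kinase, had 6 and 3 UMIs and did not reach the minimum. The log2 ratio of the mitotic sum was 1.05, and 0.46 with cells thinned before the classes were read.

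By role, 16 of those 18 mitotic genes were at least 1.5-fold higher and 0 were lower. Ube2c, the ubiquitin-conjugating enzyme that serves the anaphase-promoting complex, stood at 31.5 CPM in Foxp3+ and 3.49 CPM in Foxp3- cells, 9.02-fold (6.99 to 11.7). Mki67, the proliferation antigen Ki-67, stood at 22.9 and 3.34 CPM, 6.86-fold (5.21 to 9.07). For these genes the groups are far apart relative to counting error, which treats UMIs of a cell as independent. Of mitotic UMIs other than Cenpa, 10 cells held 37.6% in tumor Foxp3+ cells and 34.8% in tumor Foxp3- cells. The log2 ratio of the mitotic sum was lower without the 10 cells richest in mitotic UMIs of each class, as given in the closing sections.

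Cyclin B2 (Ccnb2) stood at 16.2 CPM in Foxp3+ and 2.56 CPM in Foxp3- tumor cells, 6.34-fold (4.6 to 8.78). Birc5, the survivin subunit of the chromosomal passenger complex, stood at 18.7 and 3.03 CPM, 6.17-fold (4.59 to 8.33). Cdca8, the borealin subunit of the same complex, stood at 11 and 2.56 CPM, 4.31-fold (3.03 to 6.14). Cdca3, a protein linked to mitotic entry, was 4.42-fold higher (2.97 to 6.59). The other mitotic genes past this ratio ran from 1.77-fold for Cdk1, whose interval of 0.789 to 3.71 includes 1, to 6.97-fold for the kinetochore protein gene Cenpf (3.25 to 15.6). The remaining pair were Cenpa, at 134 and 107 CPM (1.25-fold, 1.15 to 1.35), and Spc25, a part of the Ndc80 kinetochore complex, with 5 and 29 UMIs (0.721, 0.218 to 1.88).

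Top2a, the topoisomerase that untangles sister DNA, was less uneven than the genes above it. It stood at 21.3 CPM in Foxp3+ and 10.5 CPM in Foxp3- cells of the tumor library, 2.03-fold (1.63 to 2.51). A Top2a UMI was seen in 102 of 1147 tumor Foxp3+ cells (8.89%), and in 160 of 4849 tumor Foxp3- Ccr7+ cells (3.3%). The corresponding shares for Mki67 were 8.81% and 0.598%, and for Ube2c 7.15% and 0.639%. Median depth was 4725 UMIs in the Foxp3+ cells and 4176 in the Foxp3- Ccr7+ cells. In thinned cells the shares were 4.36% and 2.16% for Top2a, 3.43% and 0.278% for Mki67, and 3.71% and 0.342% for Ube2c.

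Among replication genes of the tumor library, Mcm6, Tyms and Rrm2 were at least 1.5-fold higher in Foxp3+ cells and Mcm2, Mcm4 and Pcna at least 1.5-fold lower. Pcna stood at 64.5 CPM in Foxp3+ and 106 CPM in Foxp3- cells (0.606, 0.544 to 0.674), and Mcm4 at 49.8 and 75.3 CPM (0.662, 0.585 to 0.747). Mcm7, at 20 and 29.7 CPM (0.672, 0.551 to 0.813), lay just short of that ratio, and Mcm3, at 31.3 and 24 CPM (1.31, 1.11 to 1.54), lay on the other side of 1. The helicase subunits therefore did not move as a unit between these classes. The thymidylate synthase gene Tyms stood at 17.2 and 7.41 CPM (2.32, 1.81 to 2.96), and the reductase subunit gene Rrm2 at 10.9 and 6.4 CPM (1.7, 1.26 to 2.27). Scaling by the median of ratios of all genes moves every log2 ratio of this comparison down by 0.22. Rrm2, at 0.76 before it, then lies short of 1.5-fold, and Mcm7, at -0.57 before it, lies past 1.5-fold lower.

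Mcm6 was the helicase subunit gene at least 1.5-fold higher in tumor Foxp3+ cells. It lies at chr1:128331575-128359705 (GRCm38.p6), and its promoter is shown above. Its level was 94.1 and 121 CPM in tumor and normal Foxp3+ Ccr7- cells, and 78.4 and 51.5 CPM in tumor and normal Foxp3+ Ccr7+ cells. In Foxp3- Ccr7- cells it was 46.5 and 57.3 CPM, and in Foxp3- Ccr7+ cells 36.8 and 43.4 CPM. Tumor Foxp3+ cells stood at 87.8 CPM and tumor Foxp3- cells at 38.5 CPM, 2.28-fold (2.05 to 2.54), and in the normal library the same pair stood at 61.1 and 44.7 CPM, 1.37-fold (1.02 to 1.79). The normal Foxp3+ Ccr7- value rests on 15 UMIs. A Mcm6 UMI was found in 31.8% of tumor Foxp3+ cells and 14.1% of tumor Foxp3- Ccr7+ cells, or in 17.1% and 8.09% after thinning.

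Other S-phase genes of the tumor library followed the mitotic ones more than the Mcm genes. Thymidine kinase 1 (Tk1) stood at 8.77 CPM in Foxp3+ and 1.55 CPM in Foxp3- cells, 5.65-fold (3.68 to 8.72). Pclaf, which encodes a Pcna-binding protein, stood at 10.6 and 3.84 CPM, 2.75-fold (1.98 to 3.79), and Uhrf1, needed to copy DNA methylation, at 5.68 and 2.29 CPM, 2.48-fold (1.58 to 3.83). Dut, the enzyme that removes dUTP, stood at 62 and 45.4 CPM (1.37, 1.21 to 1.53), and the chromatin remodeler gene Hells at 8.6 and 6.33 CPM (1.36, 0.978 to 1.86).

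In the normal library the same comparison rests on 206 Foxp3+ cells and 26 genes with enough UMIs. There 5 were at least 1.5-fold higher in Foxp3+ cells and 5 at least 1.5-fold lower, against 15.6% higher and 10.9% lower over all 10248 genes. Ube2c stood at 13.3 CPM in Foxp3+ and 1.62 CPM in Foxp3- cells, 8.24-fold (3.96 to 15.9), and Cdca3 at 7.78 and 2.06 CPM, 3.78-fold (1.45 to 8.3). Birc5, Ccnb2 and Cdca8 were also past 1.5-fold, on 3 to 4 Foxp3+ UMIs each and with intervals that include 1. Mki67 stood at 2.22 and 1.95 CPM (1.14, 0.135 to 4.33). Of the lower genes, Mcm7 had an interval below 1, at 17.8 and 35.1 CPM (0.507, 0.289 to 0.828), and Tyms, Rrm2, Top2a and Pclaf had 1 to 4 Foxp3+ UMIs. Without the 10 cells richest in mitotic UMIs of each class the log2 ratio of the mitotic sum was -0.22, in place of 0.41.

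**Figure D2:**
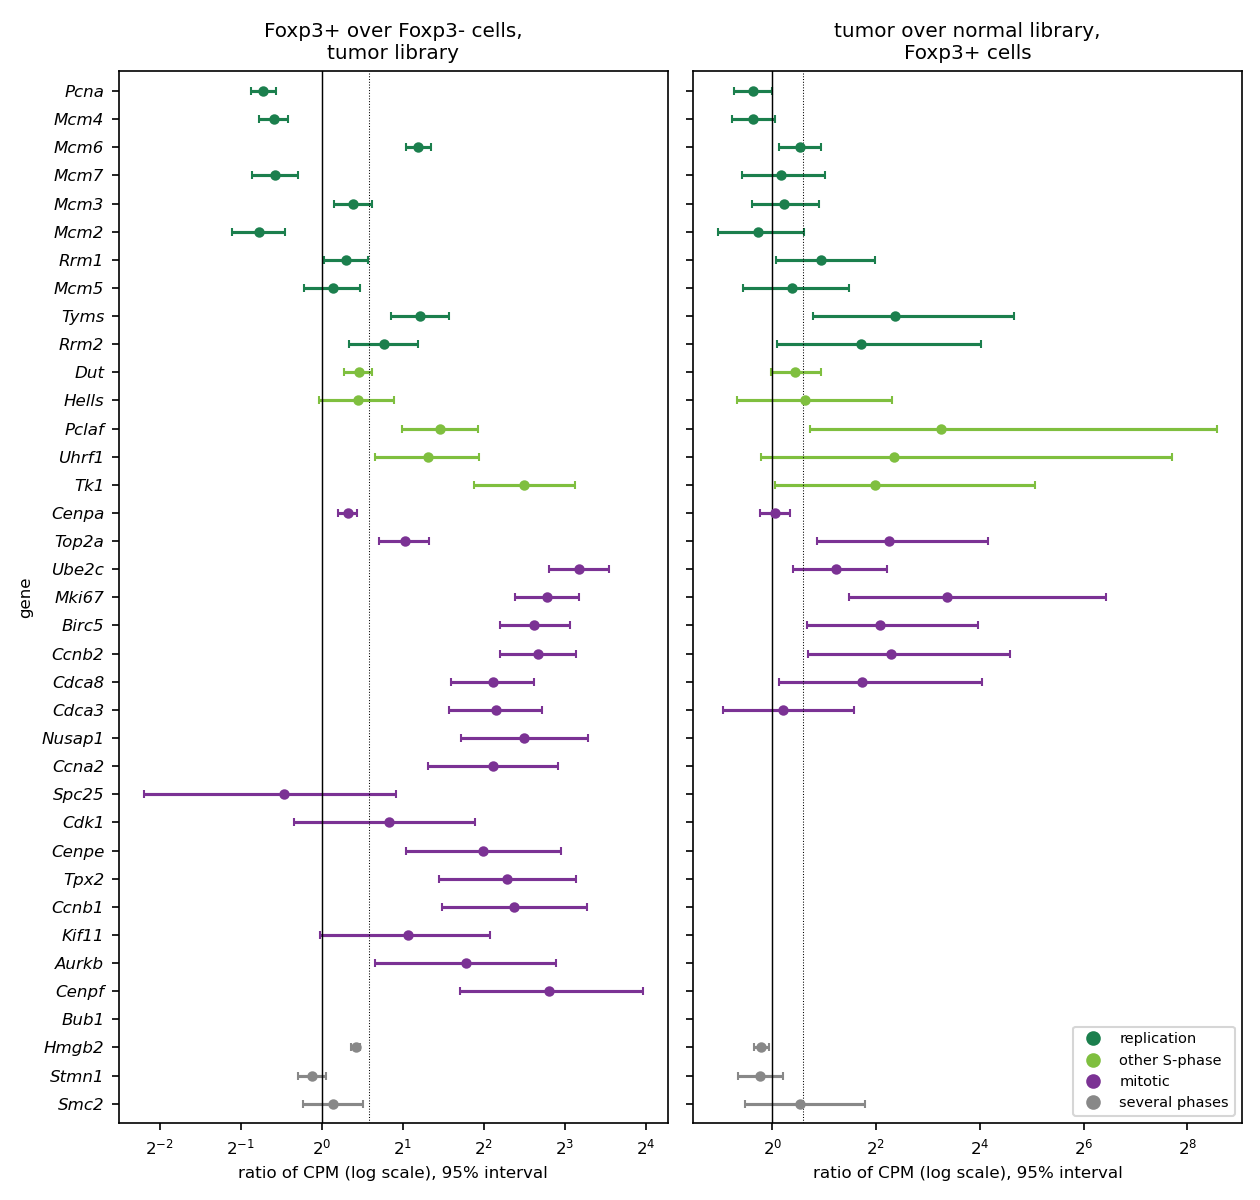
Ratio of CPM for each gene on a log axis with its 95% counting interval, colored by role, for Foxp3+ over Foxp3- cells of the tumor library (left) and tumor over normal Foxp3+ cells (right). The dotted line marks 1.5-fold, genes with fewer than 30 UMIs in both groups together are not drawn, nor is Nusap1 on the right, for which only a lower bound exists. On the left, mitotic genes other than Cenpa and Spc25 lie right of the dotted line while Pcna, Mcm4, Mcm7 and Mcm2 lie below 1, and on the right the intervals are wide.

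Between tissues, Foxp3+ cells of the tumor library carried more mitotic transcripts than Foxp3+ cells of the normal library. Tyms, Rrm1, Rrm2, Tk1 and Pclaf were also higher, though all but Rrm1 had 1 to 3 normal UMIs each. The 10 genes without 30 UMIs in both libraries together were all mitotic, and of the 27 others 14 were higher by at least 1.5-fold in tumor cells and 0 lower. Over all 9083 genes with that many UMIs, 28.4% were that much higher and 9.04% that much lower. The tumor cells supplied 6159263 UMIs and the normal cells 899932, so a gene mostly reached the minimum through the tumor library, and these counts describe only the genes that reached it. With cells thinned before the classes were read 4 genes were higher, and without the 10 cells richest in mitotic UMIs of each class 8 were, where fewer UMIs also left fewer genes past the minimum.

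Mki67 had 141 UMIs in tumor and 2 UMIs in normal Foxp3+ cells, 22.9 and 2.22 CPM, 10.3-fold (2.8 to 85.9). Tyms had 106 and 3 UMIs, 17.2 and 3.33 CPM, 5.16-fold (1.72 to 25.4). Ccnb2 stood at 16.2 and 3.33 CPM, 4.87-fold (1.62 to 24), Top2a at 21.3 and 4.44 CPM, 4.79-fold (1.83 to 17.8), and Birc5 at 18.7 and 4.44 CPM, 4.2-fold (1.6 to 15.7). Each of these intervals lies above 1, but each ratio rests on 2 to 4 UMIs of the normal library.

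Ube2c, with 12 normal UMIs, stood at 31.5 CPM in tumor and 13.3 CPM in normal Foxp3+ cells, 2.36-fold (1.32 to 4.65). The spindle protein gene Nusap1 had 35 UMIs against 0, at least 1.7-fold with 3 counts put in place of the 0. Rrm1 was 1.93-fold (1.05 to 3.94) and Rrm2 3.26-fold (1.07 to 16.2). Tk1 had 54 and 2 UMIs in tumor and normal cells, 3.94-fold (1.04 to 33.4), and Pclaf 65 and 1, 9.5-fold (1.65 to 381). Cenpa stood at 134 and 129 CPM (1.04, 0.854 to 1.27), and Cdca3 at 8.93 and 7.78 CPM (1.15, 0.521 to 2.99), so neither could be told apart between the tissues at this depth.

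Pcna, Mcm4, Mcm7 and Mcm3 had intervals that reach or include 1 between tissues in Foxp3+ cells. Pcna stood at 64.5 CPM in tumor and 83.3 CPM in normal cells (0.773, 0.603 to 1), Mcm4 at 49.8 and 64.4 CPM (0.773, 0.583 to 1.04), Mcm7 at 20 and 17.8 CPM (1.12, 0.665 to 2.03) and Mcm3 at 31.3 and 26.7 CPM (1.17, 0.767 to 1.88). Mcm6 was 1.44-fold higher (1.09 to 1.93). Median-of-ratios scaling lowers each log2 ratio of this comparison by 0.21, which leaves Hells (1.55-fold before it) and the bound of Nusap1 short of 1.5-fold.

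The Foxp3+ cells of the tissues differed in their split by Ccr7, with 746 of 1147 tumor cells and 31 of 206 normal cells being Ccr7-. Within Foxp3+ Ccr7+ cells alone, 12 of the 24 genes with enough UMIs were higher by at least 1.5-fold in tumor cells and 0 lower, beside 24.2% and 7.28% of all 7515 genes. In this class the tumor cells supplied 2461806 UMIs and the normal cells 776135. A gene again mostly reached the minimum through the tumor library, and these counts describe only the genes that reached it. Mki67 had 56 and 1 UMIs there, 22.7 and 1.29 CPM, 17.7-fold (3.04 to 709.6), and Top2a 52 and 2 UMIs, 8.2-fold (2.16 to 69.5). The sum without Cenpa was 4.4-fold higher (3.12 to 6.39), but 10 cells held 66.2% of its tumor UMIs and 94.3% of its normal UMIs. Among replication genes of this class Mcm6 was 1.52-fold higher (1.08 to 2.2), Mcm5 1.51-fold (0.756 to 3.35), Mcm7 1.43-fold (0.809 to 2.69) and Mcm3 1.4-fold (0.856 to 2.41), and the replication sum was 1.21-fold higher (1.05 to 1.41). Epithelial genes summed to 37.7 CPM in tumor and 3.33 CPM in normal Foxp3+ cells, B cell genes to 20.9 and 13.3 CPM, and myeloid genes to 181 and 101 CPM, and their part in these ratios was not tested.

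In Foxp3- cells the tissues were closer. Of 34 genes with enough UMIs, 8 were higher by at least 1.5-fold in tumor cells and 0 lower, beside 7.95% and 2.95% of all 11076 genes. Those 8 were 7 mitotic genes and Tk1, each at a few CPM. With cells thinned before the classes were read 5 were higher, with classes needing 2 UMIs 4, and without the 10 richest cells of each class 2. Ube2c stood at 3.49 CPM in tumor and 1.62 CPM in normal Foxp3- cells, 2.16-fold (1.49 to 3.17), Mki67 at 3.34 and 1.95 CPM, 1.71-fold (1.2 to 2.46), and Tpx2, which nucleates spindle microtubules, at 0.932 and 0.331 CPM, 2.81-fold (1.26 to 6.88). Top2a stood at 10.5 and 10 CPM (1.05, 0.882 to 1.24).

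Split by Ccr7, 0 of 23 genes were at least 1.5-fold higher and 2 lower in tumor against normal Foxp3- Ccr7- cells, beside 8.92% and 6.33% of all genes. In Foxp3- Ccr7+ cells 4 of 31 were higher and 0 lower, beside 6.41% and 3.01%. The mitotic sum without Cenpa was 72.6 CPM in tumor and 78 CPM in normal Foxp3- Ccr7- cells (0.93, 0.776 to 1.12), and 28.9 and 23 CPM in Foxp3- Ccr7+ cells (1.26, 1.12 to 1.41). The tumor library held 1139 Foxp3- Ccr7- cells of 5988 Foxp3- cells, and the normal library 682 of 6876.

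Of the genes of several phases, Hmgb2 was lower in tumor than in normal Foxp3- cells, and 0 of the 3 genes were past 1.5-fold in either direction in Foxp3+ or Foxp3- cells as a whole. Hmgb2, a chromatin protein that is also made in resting lymphocytes, stood at 344 CPM in tumor and 465 CPM in normal Foxp3- cells (0.739, 0.72 to 0.76). In Foxp3- Ccr7- cells it stood at 477 and 808 CPM (0.591, 0.555 to 0.628), and Stmn1, a microtubule destabilizer, at 49.2 and 79.6 CPM (0.618, 0.507 to 0.753). These were the 2 genes at least 1.5-fold lower in the tumor library of that class. In Foxp3+ cells Hmgb2 stood at 459.6 and 531 CPM (0.865, 0.785 to 0.955). Smc2, a condensin subunit gene, stood at 12.8 and 8.89 CPM in tumor and normal Foxp3+ cells (1.44, 0.698 to 3.46) and at 11.6 and 11.2 CPM in Foxp3- cells (1.04, 0.882 to 1.22).

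Among Foxp3- cells, those without a Ccr7 UMI carried more mitotic transcripts in both libraries, much of it in few cells. In the tumor library 13 of 26 genes were at least 1.5-fold higher in Ccr7- than in Ccr7+ cells and 0 lower, beside 13.7% and 4.43% of all 10278 genes. In the normal library the counts were 13 of 26 and 0, beside 16.8% and 7.64% of all 10175 genes. Tyms, Hells, Pclaf, Uhrf1, Hmgb2 and 7 mitotic genes (Mki67, Top2a, Birc5, Ube2c, Ccnb2, Cdca8, Cdca3) were among the higher genes of each library.

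Ccnb2 stood at 9.35 CPM in Ccr7- and 1.13 CPM in Ccr7+ tumor cells, 8.28-fold (4.9 to 14.3), and at 11 and 0.647 CPM in normal cells, 16.9-fold (8.81 to 33.7). Ube2c was 3.16-fold higher in tumor cells (2.01 to 4.9) and 12-fold in normal cells (6.38 to 23). Mki67 was 3.93-fold (2.5 to 6.14) and 3.96-fold (2.03 to 7.38). Top2a was 1.79-fold (1.35 to 2.35) and 1.83-fold (1.29 to 2.56), at 16.5 and 9.22 CPM in the tumor library and 17.1 and 9.3 CPM in the normal library. The replication sum was 1.02-fold (0.963 to 1.08) and 1.09-fold (1.01 to 1.16), and Cenpa was 1.06-fold (0.965 to 1.17) and 1-fold (0.878 to 1.14). In the Ccr7- class 10 cells held 49.7% of tumor and 59.9% of normal mitotic UMIs other than Cenpa. Without the 10 cells richest in mitotic UMIs of each class, the log2 ratio of the mitotic sum was 0.20 (0.07 to 0.33) in the tumor library, in place of 0.46, and 0.09 (-0.08 to 0.26) in the normal library, in place of 0.52.

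Among Foxp3+ cells of the tumor library the Ccr7 split gave the opposite order. Of 27 genes 0 were at least 1.5-fold higher in Ccr7- cells and 10 lower, beside 8.13% and 5.34% of all 8858 genes. The 10 were Mcm5, Mcm7, Rrm2, Tk1, Uhrf1, Pclaf, Birc5, Ccnb2, Cdca8 and Stmn1. Ccnb2 stood at 11.4 CPM in Ccr7- and 23.6 CPM in Ccr7+ cells (0.482, 0.316 to 0.73), Birc5 at 14.1 and 25.6 CPM (0.55, 0.373 to 0.806) and Mcm7 at 14.9 and 27.6 CPM (0.539, 0.37 to 0.78). Mki67, at 23 and 22.7 CPM (1.01, 0.713 to 1.44), and Top2a, at 21.4 and 21.1 CPM (1.01, 0.704 to 1.46), had intervals that include 1.

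The 10 cells richest in mitotic UMIs held 27.5% of all mitotic UMIs in the Foxp3+ Ccr7- class and 49.6% in the Foxp3+ Ccr7+ class. Median depth was 4566 UMIs in the Ccr7- cells and 5223 UMIs in the Ccr7+ cells. Without those 10 cells of each class the mitotic log2 ratio of Ccr7- over Ccr7+ cells was 0.25 (0.08 to 0.43), in place of -0.22. With cells thinned before the classes were read it was 0.32 (-0.0038 to 0.66), and the classes then held 651 Ccr7- and 243 Ccr7+ cells. The order of these classes in the mitotic sum with Cenpa therefore turned. With the classes kept as read at full depth, 1.31% (0.599 to 2.47) of thinned Ccr7- and 2.82% (1.42 to 4.99) of thinned Ccr7+ cells held 3 or more mitotic genes. Without Cenpa the shares were 1.16% (0.503 to 2.27) and 2.31% (1.06 to 4.34). Both pairs have the unthinned order, with intervals that overlap. The normal library had 31 Foxp3+ Ccr7- cells and was not compared this way.

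A mitotic transcript such as Cenpa or Top2a occurs alone in many cells, so cells with UMIs of 3 or more different mitotic genes were counted. In tumor lung 98 of 7135 cells met this (1.37%, 1.12 to 1.67), against 35 of 7082 cells of normal lung (0.494%, 0.344 to 0.687), or 0.504% and 0.204% after thinning. In Foxp3+ cells the share was 54 of 1147 tumor cells (4.71%, 3.56 to 6.1) and 6 of 206 normal cells (2.91%, 1.08 to 6.23), intervals that overlap. In Foxp3- cells it was 44 of 5988 (0.735%, 0.534 to 0.985) and 29 of 6876 (0.422%, 0.283 to 0.605).

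By class, the tumor and normal shares were 4.16% and 0 of 31 cells in Foxp3+ Ccr7- cells, where the floor of 3 counts is a share of 9.68% and the Clopper-Pearson upper limit is 11.2%. They were 5.74% and 3.43% in Foxp3+ Ccr7+ cells, 1.67% and 1.91% in Foxp3- Ccr7- cells, and 0.516% and 0.258% in Foxp3- Ccr7+ cells. After thinning, tumor Foxp3+ cells were at 1.85% (1.14 to 2.85) and tumor Foxp3- cells at 0.247% (0.135 to 0.414). Not counting Cenpa, 37 tumor Foxp3+ cells (3.23%) and 25 tumor Foxp3- cells (0.418%) held 3 or more mitotic genes.

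Cells with 3 or more replication genes were common and did not separate the classes once depth was evened. Unthinned they were 14.9% of tumor and 8.25% of normal Foxp3+ cells, and 10.8% and 9.18% of tumor and normal Foxp3- cells. After thinning the shares were 2.41% and 2.59% in Foxp3+ cells and 2.97% and 3.03% in Foxp3- cells. Foxp3+ Ccr7+ tumor cells, the deepest class, stood at 20.9% unthinned and 2.05% thinned. Both criteria were met by 45 tumor and 15 normal cells.

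**Figure D3:**
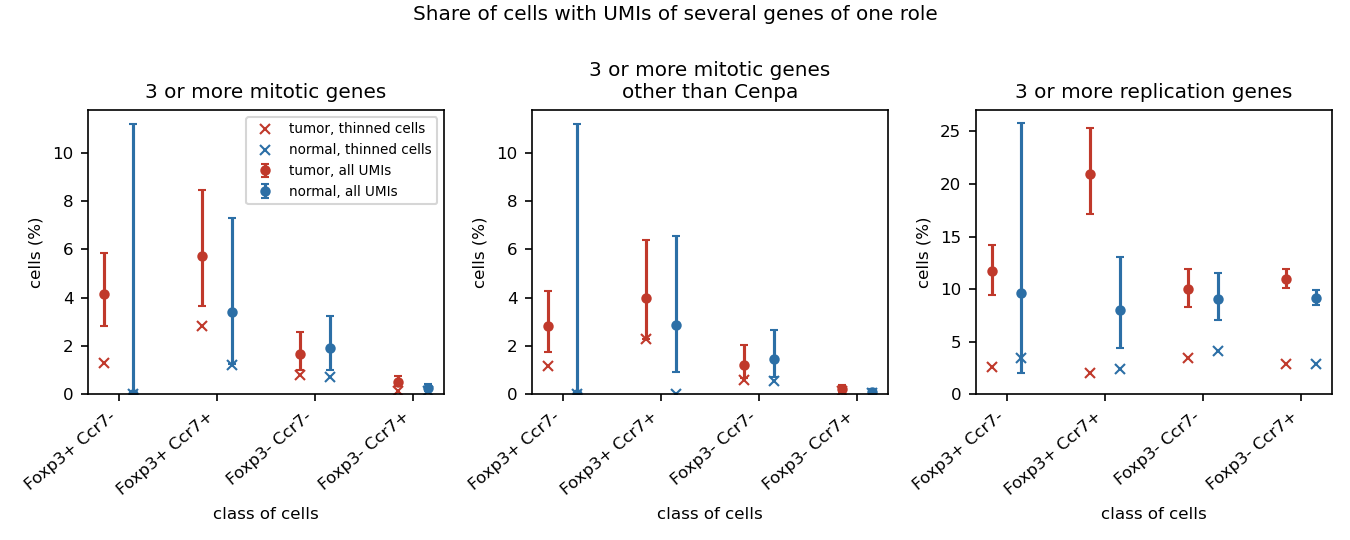
Share of cells (percent) with UMIs of 3 or more mitotic genes, the same without Cenpa, and of 3 or more replication genes, by class, tumor left of normal. Circles with bars give all UMIs with 95% Clopper-Pearson intervals and crosses give thinned cells. The mitotic share is highest in tumor Foxp3+ classes (4.16% and 5.74%), while thinned replication shares lie between 2.05% and 4.16% in every class and library.

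The 98 tumor cells and 35 normal cells with 3 or more mitotic genes were deep, with medians of 8738 and 8959 UMIs, against 4157 and 3903 UMIs in the other cells. Of the tumor cells 55.1% (44.7 to 65.2) were Foxp3+, against 15.5% of the other tumor cells, and of the normal cells 17.1% (6.56 to 33.6) against 2.84%. When cells were thinned before Foxp3 was read, with the same cells compared, the shares were 36.5% and 12.9% in the tumor library and 14.3% and 2.27% in the normal library. A Ccr7 UMI was found in 49% of these tumor cells against 73.9% of the others, and in 62.9% of these normal cells against 90.1%.

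To see how each mitotic gene related to the rest, its level was taken in cells holding 3 or more of the 18 others. Ccnb2 stood at 166 CPM in 93 such tumor cells and 0.484 CPM elsewhere, 342-fold (201 to 627), and at 122 and 0.324 CPM in the normal library, 377-fold (179 to 889). Birc5 ratios were 296 in tumor cells (186 to 497) and 488 in normal cells (236 to 1136). Mki67 was 24.3-fold (18.4 to 31.9) and 76.2-fold (43 to 134), and Ube2c 39.3-fold (30.9 to 49.9) and 126-fold (72.1 to 222). Top2a was 6.85-fold (5.16 to 8.97) and 11.1-fold (7.18 to 16.6), and Cenpa 3.79-fold (3.33 to 4.3) and 3.03-fold (2.36 to 3.83). A Ccnb2 UMI was found in 39.8% of such tumor cells and 0.17% of the other tumor cells, and a Cenpa UMI in 79% and 32.8%. Ccnb2 and Birc5 were thus nearly confined to cells that also held other mitotic transcripts, and Cenpa was not.

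The non-mitotic genes, which played no part in choosing these cells, divided in the same manner. The 98 tumor and 35 normal cells held 2.98% and 1.12% of all UMIs of their libraries. Of all Pclaf UMIs they held 90.2% in tumor lung (84.6 to 94.3) and 94% in normal lung (86.5 to 98). For Tk1 the shares were 51.1% (40.5 to 61.5) and 88% (68.8 to 97.5), for Uhrf1 43.6% (33.4 to 54.2) and 45.7% (30.9 to 61), for Rrm2 35.8% (29.6 to 42.3) and 31.4% (24.6 to 38.9), and for Tyms 22.6% (17.9 to 27.7) and 17% (12 to 23.1). Most UMIs of Pclaf and Tk1 thus lay in these cells, and most UMIs of Uhrf1, Rrm2 and Tyms did not.

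Nearly all UMIs of Pcna and Mcm4 lay in other cells, though in the normal library their shares were above the 1.12% of all UMIs. Of all Pcna UMIs the same cells held 3.32% in tumor lung (2.72 to 4) and 2.24% in normal lung (1.71 to 2.88), and 3.11% (2.44 to 3.92) and 3.15% (2.42 to 4.03) of Mcm4 UMIs. Mcm2, Mcm3, Mcm5, Mcm6, Mcm7 and Rrm1 lay between, from 6.6% for Mcm2 to 13.1% for Mcm5 in the tumor library, and from 3.72% for Mcm7 to 13.5% for Mcm5 in the normal library. As CPM, Mcm5 stood at 58.9 in these tumor cells and 12 in the others, 4.9-fold (3.63 to 6.5), and Pcna at 109 and 97.9, 1.12-fold (0.909 to 1.36). In the normal library Mcm5 was 13.8-fold higher (10.2 to 18.3) and Pcna 2.02-fold (1.53 to 2.62). Mcm4 was 1.05-fold (0.812 to 1.33) in the tumor library and 2.87-fold (2.19 to 3.71) in the normal library. Among all 10768 tumor genes with enough UMIs, 23.6% were at least 1.5-fold higher in these cells and 17.2% lower, and in the normal library 29.2% and 16.3%.

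**Figure D4:**
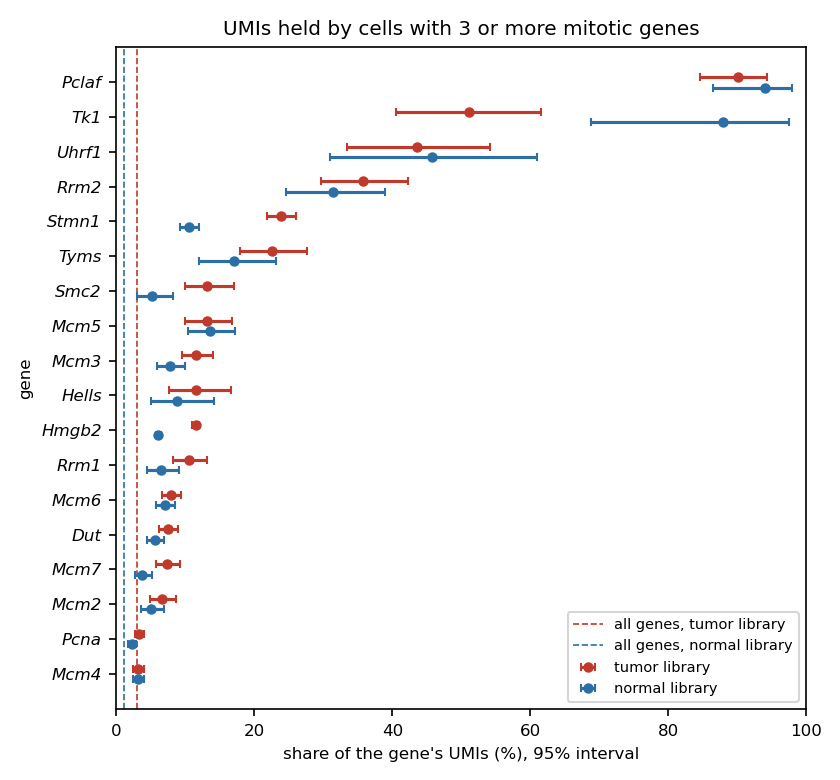
Share of the UMIs of each non-mitotic gene (percent, with 95% interval) that lay in cells with 3 or more mitotic genes, tumor above normal. Dashed lines give the share of all UMIs in those cells, 2.98% and 1.12%. Pclaf lies at 90.2% and 94%, while Pcna and Mcm4 lie between 2.24% and 3.32%.

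Further cell cycle genes described the same cells. Over all genes with enough UMIs, 23.6% were at least 1.5-fold higher in tumor cells with 3 or more mitotic genes and 17.2% lower. In the normal library 29.2% were higher and 16.3% lower. Of 23 origin licensing and fork genes with enough UMIs, 17 were higher by at least 1.5-fold in tumor cells with 3 or more mitotic genes and 0 lower, and of 22 in the normal library 22 were higher. The licensing factor gene Cdt1 stood at 54.7 CPM in these tumor cells and 49.9 CPM in the others (1.09, 0.814 to 1.44), and at 111 and 44.8 CPM in the normal library (2.49, 1.72 to 3.48). Of 26 other mitotic genes 24 were higher in the tumor library, and of 18 in the normal library 14 were higher and 2 lower. The phosphatase gene Cdc25b, an activator of Cdk1, was 3.63-fold (2.97 to 4.4) and 5.57-fold (4.41 to 6.96). Tubb4b, a tubulin gene counted in that list, was 1.1-fold (0.954 to 1.27) and 0.593-fold (0.436 to 0.79).

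Inhibitor and quiescence genes were mostly lower there, 6 of 11 with 2 higher in each library. Over all genes 17.2% were lower and 23.6% higher in the tumor library, and 16.3% and 29.2% in the normal library. Btg1, an antiproliferative gene, stood at 779 CPM in these tumor cells and 2084 CPM in the others (0.374, 0.347 to 0.402), and at 549.8 and 1967 CPM in the normal library (0.28, 0.239 to 0.324). Klf2, a transcription factor of resting T cells, was at 0.302 (0.263 to 0.344) and 0.564 (0.494 to 0.64), and Foxp1, a keeper of T cell quiescence, at 0.388 (0.32 to 0.466) and 0.459 (0.349 to 0.592). Of the chromatin and nuclear protein genes 15 of 17 were higher in the tumor library and 13 of 15 in the normal library, with H2afz, a histone variant gene, at 3.05-fold (2.91 to 3.19) and 3.93-fold (3.62 to 4.26). H2afz was also 3.08-fold higher in all tumor Foxp3+ over Foxp3- cells (3 to 3.16). In that comparison 5 of 11 inhibitor and quiescence genes were at least 1.5-fold lower and 3 higher, beside 12.1% and 28.8% of all genes. Of the tumor cells with 3 or more mitotic genes 55.1% were Foxp3+ and 49% held a Ccr7 UMI, against 15.5% and 73.9% of the others. The part of class in the values of cells with 3 or more mitotic genes was not tested.

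Regulators of G1 were mixed. In the tumor library 8 of 12 were higher and 1 lower, beside 23.6% and 17.2% of all genes. In the normal library 7 were higher and 2 lower, beside 29.2% and 16.3%. The cyclin gene Ccnd3 stood at 142 CPM in these tumor cells and 240.4 CPM in the others (0.59, 0.494 to 0.7), and at 219 and 172 CPM in the normal library (1.27, 0.989 to 1.62). Cdk4, its kinase partner, was 1.54-fold (1.26 to 1.86) and 1.96-fold (1.4 to 2.67).

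Markers of T cell state differed between these cells and the rest. The 6 regulatory T cell genes summed to 3528 CPM in the tumor cells with 3 or more mitotic genes and 1609.7 CPM in the other tumor cells, 6 naive genes to 1297 and 3363 CPM, and 6 effector genes to 798 and 306 CPM. Within Foxp3+ tumor cells the regulatory genes summed to 4955 CPM in the cells with 3 or more mitotic genes and 6591 CPM in the others, and within the 206 Foxp3+ normal cells to 3019 CPM in 6 such cells and 2449 CPM in the others. The effector genes summed to 638 and 871 CPM within Foxp3+ tumor cells, the reverse of their order over all tumor cells. Within Foxp3+ normal cells they summed to 188 CPM, on 11 UMIs, and 134 CPM. Within Foxp3- tumor cells the effector genes summed to 1039 and 181 CPM, and the regulatory genes to 1376 and 513 CPM. In the normal library Foxp3- cells had 1824 and 486 CPM of effector genes.

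Markers of other cell types were counted in the same cells. B cell genes summed to 25.2 CPM in them and 5.17 CPM in the other tumor cells, with 2 of 4 genes at 0, among them Ms4a1. Epithelial genes summed to 15.8 and 12.9 CPM in the tumor library, with 4 of 7 at 0, and to 0 UMIs in the normal library. Myeloid genes summed to 170.3 and 90.5 CPM, of which Cst3 made 161 and 84.8 CPM, and the part of these transcripts in the results was not tested. The CD4 T cell genes summed to 3402 and 3116 CPM in the tumor library.

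Receptors were joined by barcode within each tissue to ask whether cells with 3 or more mitotic genes belonged to clones. Of 82 such tumor cells with a paired receptor, 19 (23.2%, 14.6 to 33.8) shared it with another kept cell, against 355 of 5623 other tumor cells (6.31%, 5.69 to 6.98). Among Foxp3+ tumor cells the shares were 12 of 46 (26.1%, 14.3 to 41.1) and 263 of 850 (30.9%, 27.8 to 34.2). Among Foxp3- tumor cells they were 7 of 36 (19.4%, 8.19 to 36) and 92 of 4773 (1.93%, 1.56 to 2.36). The intervals overlap within Foxp3+ cells and do not within Foxp3- cells. In the normal library 3 of 29 cells with 3 or more mitotic genes (10.3%, 2.19 to 27.4) shared a receptor, against 206 of 5431 (3.79%, 3.3 to 4.34). Among normal Foxp3- cells the shares were 12.5% (2.66 to 32.4) and 3.73% (3.23 to 4.27), intervals that overlap. The 82 tumor cells carried 79 different receptors, 3 of them in 2 cells each, and the 29 normal cells carried 29.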

How the data were processed

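Expression was measured in 1 tumor-lung and 1 normal-lung CD4 T cell library. The deposited matrices hold raw UMI counts per gene and cell, made with Cell Ranger 3.1.0 per the file headers and mm10 per the submitters' processing notes. The deposited receptor tables list assembled chains per barcode, and the assembler's version is not given in the sources used here. Cells were kept with at least 500 genes, under 10% mitochondrial UMIs, at most 2 productive alpha chains and at most 1 productive beta chain. The last rule was the handling of doublets, and no caller was run. It removed 533 tumor and 602 normal cells, and the other filters removed 120 and 61.

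Classes were read from at least 1 UMI of Foxp3 or Ccr7. UMIs were summed per class and library and given as CPM with exact Poisson 95% intervals, ratios with exact conditional intervals and shares with Clopper-Pearson intervals. All of these cover counting error only and treat UMIs of a cell as independent, although a few cells can hold many UMIs of a gene. A ratio was read against 1.5-fold, for genes with at least 30 UMIs summed over both groups, and a count of 0 was replaced by 3 counts for a bound. Cells were thinned at random to 2417 UMIs, a depth set by percentile 10 of the library with the lower depth, which left out 393 tumor and 708 normal cells. With 1 library per tissue no test was possible. The replication genes Pcna, Mcm4, Mcm6, Mcm7 and Mcm3 and the mitotic genes Cenpa, Top2a, Ube2c, Mki67, Birc5, Ccnb2, Cdca8 and Cdca3 were named as those with the most UMIs, and others by range or where they differed in direction from their role. Up to 4 genes of each further list were named by the same rule. Individual genes outside that rule were named after their values were seen.

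The members and gene lists were chosen with earlier results of these data known. Alternatives were other cell filters, classes needing 2 UMIs, thinning before classes, median-of-ratios scaling and other gene lists. Leaving out Cenpa and leaving out the 10 cells richest in mitotic UMIs per class were added after seeing the data. Loss of reads shared with near-identical gene copies was not examined. Promoters came from a RefSeq table (GRCm38.p6). Computation used Python 3.11.15, numpy 2.4.6, scipy 1.17.1, pandas 2.3.3 and matplotlib 3.10.9, and the scripts were tested on simulated data.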

Additional observations from a re-analysis of the deposited data

Results flagged for a closer look

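Mcm6 differed between tissues in opposite directions, at 1.44-fold for tumor over normal Foxp3+ cells and 0.862 for tumor over normal Foxp3- cells. The difference between these ratios was not tested, since there was 1 library per tissue.

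The split by Ccr7 ran in opposite directions in the tumor library, with ratios of Ccr7- over Ccr7+ cells below 1 among Foxp3+ cells and above 1 among Foxp3- cells. The values were 0.473 and 2.7 for Pclaf, 0.55 and 3.85 for Birc5, and 0.482 and 8.28 for Ccnb2, each with the Foxp3+ value before the Foxp3- value. In the same order, the mitotic sum stood at 0.861 and 1.37, the mitotic sum without Cenpa at 0.714 and 2.51, and the sum of genes of several phases at 0.874 and 1.4. These differences were not tested. The Foxp3+ mitotic value changed sign with cells thinned before the classes were read and without the 10 richest cells per class.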

How the results depend on the processing

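Of 16 results under up to 10 alternatives, 104 values were counted as close to the reported one, 26 as moved and 5 as reversed. Not every change of sign given below is among the 5 counted as reversed. All values are log2 ratios unless called counts, and the cause of each move was not tested unless the change itself shows it. With cells thinned before classes were read, the mitotic sum was 0.40 for tumor over normal Foxp3+ cells (0.75 as reported), 0.46 for Foxp3+ over Foxp3- tumor cells (1.05), 0.29 for Ccr7- over Ccr7+ normal Foxp3- cells (0.52) and 0.32 for Ccr7- over Ccr7+ tumor Foxp3+ cells (-0.22). The replication sum was -0.16 for Foxp3+ over Foxp3- tumor cells (-0.05), and the counts of genes higher in the tumor library were 4 of Foxp3+ (14) and 5 of Foxp3- cells (8). With classes needing 2 UMIs the Foxp3- count was 4.

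Without Cenpa the mitotic sum was 1.78 and 0.38 for tumor over normal Foxp3+ and Foxp3- cells, 2.17 and 0.77 for Foxp3+ over Foxp3- cells of the tumor and normal libraries, 1.33 and 1.76 for Ccr7- over Ccr7+ Foxp3- cells of those libraries, and -0.49 for Ccr7- over Ccr7+ tumor Foxp3+ cells. Without the 10 cells richest in mitotic UMIs per class it was 0.64 and -0.22 for Foxp3+ over Foxp3- cells of the tumor and normal libraries, 0.20 and 0.09 for Ccr7- over Ccr7+ Foxp3- cells, and 0.25 for Ccr7- over Ccr7+ tumor Foxp3+ cells. The replication sum of Ccr7- over Ccr7+ normal Foxp3- cells was then -0.02 (0.12), and the counts were 8 of Foxp3+ and 2 of Foxp3- cells. Both of these alternatives were chosen after seeing the data.

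With median-of-ratios scaling the mitotic sum was 0.83 for Foxp3+ over Foxp3- and 0.34 for Ccr7- over Ccr7+ Foxp3- tumor cells. The replication sum was -0.06 for tumor over normal Foxp3+ cells (0.15), -0.26 for Foxp3+ over Foxp3- tumor cells, and -0.09 and -0.03 for Ccr7- over Ccr7+ Foxp3- cells of the tumor and normal libraries (0.03 and 0.12). With Mki67 and Top2a left out, the mitotic sum of Foxp3+ over Foxp3- tumor cells was 0.96, and with the other S-phase genes added their replication sum was 0.09. No paired analysis was possible because each tissue had 1 library. Depth limits the normal Foxp3+ cells most, where 206 cells gave 899932 UMIs and many mitotic genes had 0 to 4 UMIs.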

Other observations

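Of the 98 tumor cells with 3 or more mitotic genes, those in the Foxp3- Ccr7- class shared a receptor with another cell in 5 of 17 cases (29.4%, 10.3 to 56), against 75 of 853 other cells of that class (8.79%, 6.98 to 10.9). In tumor Foxp3- Ccr7+ cells the counts were 2 of 19 (10.5%, 1.3 to 33.1) and 17 of 3920 (0.434%, 0.253 to 0.693). In the normal library they were 3 of 10 (30%, 6.67 to 65.2) and 87 of 490 (17.8%, 14.5 to 21.4) among Foxp3- Ccr7- cells. Among normal Foxp3- Ccr7+ cells they were 0 of 14 (0 to 23.2%) and 110 of 4795 (2.29%, 1.89 to 2.76). Among normal Foxp3+ cells they were 0 of 5 (0 to 52.2%) and 9 of 146 (6.16%, 2.86 to 11.4). The largest clone holding such a cell had 6 cells in the tumor library and 29 cells in the normal library.

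H2afz stood at 1589 CPM in tumor and 808 CPM in normal Foxp3+ cells, 1.97-fold (1.82 to 2.12), and at 631 and 846 CPM in Foxp3- Ccr7- cells, 0.745 (0.704 to 0.789). Among genes of the 37, Stmn1 in tumor Foxp3+ cells stood at 36.2 CPM in Ccr7- cells and 72.3 CPM in Ccr7+ cells (0.501, 0.398 to 0.631).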
